A study of Mus musculus with 12 samples.

Results

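A set of 8 genes of nicotinamide adenine dinucleotide (NAD) metabolism were followed in heart muscle cells of mice. Either both copies (KO) or a single copy (CTRL) of the gene for the transcription factor Srf could be deleted. The set held the synthesis genes Itgb1bp3, Nampt, Nmnat1 and Nmnat3, and the NAD-consuming genes Sirt1, Sirt3, Parp1 and Cd38. They were chosen with earlier results of these data known and taken by symbol, as 8 of the 23337 genes in the count tables. All 8 passed the filter on low counts in every comparison. Itgb1bp3 is the older symbol of Nmrk2, nicotinamide riboside kinase 2. It was included because earlier results of these data had shown its adult KO level, so its values that involve the adult groups are given as a description, with no test.

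RNA was sequenced from sorted cardiomyocytes (CMs) of 4 groups, with 3 hearts each. KO animals were Srf F/F, with both gene copies flanked by loxP sites. CTRL animals were Srf F/+, with a single such copy that could also be deleted and an intact copy that was kept. No group without a loxP-flanked copy was included. All 4 groups carried a Rosa reporter allele (Cas9GFP, tdTomato or mTmG) and received AAV9-cTNT-Cre, a virus that expresses Cre recombinase from the cardiac troponin T promoter, at a low dose meant to reach a part of the CMs, so CTRL CMs had also met virus, Cre and reporter. Neonatal animals were injected on day 1 after birth and collected on day 14 (P14), and adult animals were injected on day 60 and collected on day 90 (P90). The genetic background was mixed, whether KO and CTRL animals were littermates is not stated, and only fluorescent CMs were sorted. Stage and the handling of the separate neonatal and adult sets cannot be told apart.

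NAD carries electrons between metabolic reactions and is also used up as a substrate by sirtuins, poly(ADP-ribose) polymerases and glycohydrolases, so it has to be remade. In mammals most of it is rebuilt from nicotinamide: Nampt makes nicotinamide mononucleotide (NMN) in the rate-limiting step, and the Nmnat enzymes join NMN to an adenylate to give NAD, Nmnat1 in the nucleus and Nmnat3 in mitochondria. Nicotinamide riboside kinases reach NMN by another route, from nicotinamide riboside. Nmrk1 is broadly expressed, whereas Nmrk2 is found mainly in striated muscle. The heart, with its dense mitochondria, depends on a steady NAD supply.

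The upstream sequences of Itgb1bp3 and of the 3 members that were down-regulated in neonatal KO (Nampt, Nmnat3 and Sirt3) are shown so that the member with the adult rise can be set beside those with the neonatal fall. Each is the 250 bases before the gene start in RefSeq (GRCm38.p6, the assembly called mm10), on the gene's own strand, and capitals mark TATAAA, the core of a TATA box.
Itgb1bp3, chr10:81202038-81202287, minus strand: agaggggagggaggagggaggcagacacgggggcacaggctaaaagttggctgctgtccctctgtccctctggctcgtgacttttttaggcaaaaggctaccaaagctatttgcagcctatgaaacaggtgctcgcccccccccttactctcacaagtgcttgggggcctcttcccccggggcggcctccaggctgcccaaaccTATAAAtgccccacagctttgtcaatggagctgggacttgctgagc
Nampt, chr12:32820085-32820334, plus strand: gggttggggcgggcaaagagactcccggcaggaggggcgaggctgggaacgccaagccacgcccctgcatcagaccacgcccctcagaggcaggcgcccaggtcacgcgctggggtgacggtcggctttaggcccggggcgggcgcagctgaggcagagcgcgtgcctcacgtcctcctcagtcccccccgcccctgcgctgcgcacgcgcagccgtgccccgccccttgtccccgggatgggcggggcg
Nmnat3, chr9:98296320-98296569, plus strand: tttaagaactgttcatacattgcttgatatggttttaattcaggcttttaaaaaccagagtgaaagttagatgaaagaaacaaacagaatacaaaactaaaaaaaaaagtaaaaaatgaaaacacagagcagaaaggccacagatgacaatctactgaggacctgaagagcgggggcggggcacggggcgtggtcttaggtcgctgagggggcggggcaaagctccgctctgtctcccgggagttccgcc
Sirt3, chr7:140882310-140882559, minus strand: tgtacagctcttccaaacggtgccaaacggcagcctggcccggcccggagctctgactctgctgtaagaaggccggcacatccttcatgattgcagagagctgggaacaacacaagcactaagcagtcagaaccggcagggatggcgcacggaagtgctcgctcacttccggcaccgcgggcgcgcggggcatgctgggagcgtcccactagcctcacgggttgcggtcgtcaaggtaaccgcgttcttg
Of these 4 windows only that of Itgb1bp3 held TATAAA, with its first base 46 bases before the start, and so did 7.59% of all 32851 RefSeq windows of this length on the gene strand. The Itgb1bp3 window was 58.8% G or C with 5 CG dinucleotides, against 75.6% and 27 for Nampt, 45.6% and 9 for Nmnat3, and 62.4% and 21 for Sirt3. The medians over all windows were 52.4% and 6. The CArG box, the element that Srf binds, was searched on both strands and occurred without a mismatch in none of the windows of the 8 members and in 1.47% of all windows. With up to 1 mismatch it occurred in those of Itgb1bp3 and Cd38 and in 18.6% of all windows. The TATAAA search and the allowance for a mismatch were chosen after the sequences had been seen, and a match is a description of letters, not of binding. A lack of a match in 250 bases does not speak to sites elsewhere. The paper reports Srf bound both near gene starts and far from them at P14, and its binding data were not examined here for the members.

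Total counts were 9740389 to 23103460 per library, and a floor of 3 counts was 0.13 to 0.308 CPM, the count scaled to the depth of the library. CPM values below were adjusted by trimmed mean of M-values (TMM) factors over the 12 libraries. The knockout was checked first. Srf was 64.0, 57.1 and 49.4 CPM in P14 CTRL and 32.1, 27.5 and 9.75 CPM in P14 KO, and 71.2, 59.1 and 81.1 CPM in P90 CTRL and 32.9, 28.9 and 28.1 CPM in P90 KO, so KO lay below CTRL at both stages and kept 40.7% of the CTRL mean at P14 and 42.5% at P90. The adult fall of Srf passed (log2 fold change of -1.23, edgeR adjusted p of 0.00347), whereas the neonatal one, -1.30 ± 0.36 (SE), did not (adjusted p of 0.0628, or 0.00216 by DESeq2). P14 KO replicate 3 had the lowest Srf level, and without it the neonatal value was -0.92 with an adjusted p of 0.0474. The 5 ventricular CM markers (Myh6, Tnnt2, Actn2, Pln and Myl2) had a summed level of 78500 to 85880 CPM in neonatal CTRL against 57100 to 61830 CPM in neonatal KO. The paper reports Myh6 and Myl2 as lower and Actn2 as higher in neonatal KO, so this sum holds genes that changed with Srf loss in both directions. In the adult samples the sum was 79180 to 86940 CPM for CTRL and 69310 to 72300 CPM for KO. In contrast, the 5 macrophage and leukocyte markers summed to at most 12.5 CPM, the 5 lymphocyte markers to at most 1.64 CPM, the 5 skeletal muscle fibre markers to at most 7.05 CPM and the 5 fibroblast markers to at most 149.9 CPM. The 5 endothelial markers summed to 150.3 to 345.1 CPM and the 5 atrial markers to 56.69 to 1182 CPM. The 5 smooth muscle and pericyte markers (Myh11, Rgs5, Pdgfrb, Kcnj8 and Abcc9) summed to 391.8 to 527.7 CPM in neonatal CTRL and 327.4 to 417 CPM in neonatal KO. In adult samples they summed to 514.7 to 643.5 CPM for CTRL and 381.1 to 489.7 CPM for KO, with no overlap. Which cells carried these reads, CMs included, was not tested. In the erythroid list, the 4 globin genes (Hba-a1, Hba-a2, Hbb-b1 and Hbb-b2) were listed at 0 in every library. In neonatal KO, 1 of 5 ventricular and 1 of 4 atrial markers tested were called, where 8.59% of all genes were. In adult KO 0 of all marker lists were called, where 0.39% of all genes were, and at that share the lack of calls does not speak to the mix of cells. Y-linked reads placed 1 male in each of P14 CTRL, P14 KO and P90 CTRL and 0 in P90 KO. In sorted cells, a change in RNA per cell and a change in the mix of cells cannot be told apart.

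Itgb1bp3 (chr10:81198170-81202037, mm10, minus strand), the riboside kinase, was the member whose highest and lowest samples differed by the largest factor. It was 32.0, 61.3 and 25.9 CPM in the P14 CTRL samples and 37.5, 67.1 and 41.8 CPM in the P14 KO samples. The ranges overlapped, and replicate 2 was the highest in both groups. It was 17.1, 22.7 and 17.9 CPM in the P90 CTRL samples and 134.5, 159.0 and 154.0 CPM in the P90 KO samples. These adult groups were far apart: the lowest KO sample was 5.92 times the highest CTRL sample, and the ratio of the means was 7.76, for a log2 fold change of 2.97 ± 0.13 (SE, n = 3 against 3). These values were known when the gene was chosen. The summed ventricular and the summed smooth muscle and pericyte markers were lower in the same adult KO samples, with no overlap with CTRL, and their part in the Itgb1bp3 difference was not tested.

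The neonatal contrast of Itgb1bp3 used other samples and was tested. It gave a log2 fold change of 0.29 ± 0.33 (SE), and edgeR's quasi-likelihood test over all genes an adjusted p of 0.653. The estimate moved with single libraries in both directions. It was 0.75 without P14 CTRL replicate 2 (adjusted p of 0.116), 0.46 without P14 KO replicate 1 (0.552), 0.15 without P14 CTRL replicate 1 (0.842), 0.06 without P14 CTRL replicate 3 (0.934) and 0.01 without P14 KO replicate 2 (0.988). A neonatal difference was thus not detected by the main test against a spread of 39.7 ± 18.9 CPM in CTRL and 48.8 ± 16.0 CPM in KO (mean ± SD, n = 3), at 442 or more reads per library. KO was above CTRL in each same-numbered pair of samples, though nothing states that the numbers pair hearts. With a replicate block Itgb1bp3 had an unadjusted edgeR p under 0.05, as had 3609 of 12546 genes. Its adjusted p was under 0.05 in 0 of 13 fits. In CTRL CMs the adult mean was 48.4% of the neonatal one (log2 fold change of -1.05, or -0.62 without P14 CTRL replicate 2), so the high adult KO level stood against a control level that was the lowest of the 4 groups. The neonatal KO effect minus the adult one was -2.67 on the log2 scale, and -2.21 without P14 CTRL replicate 2.

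**Figure D1:**
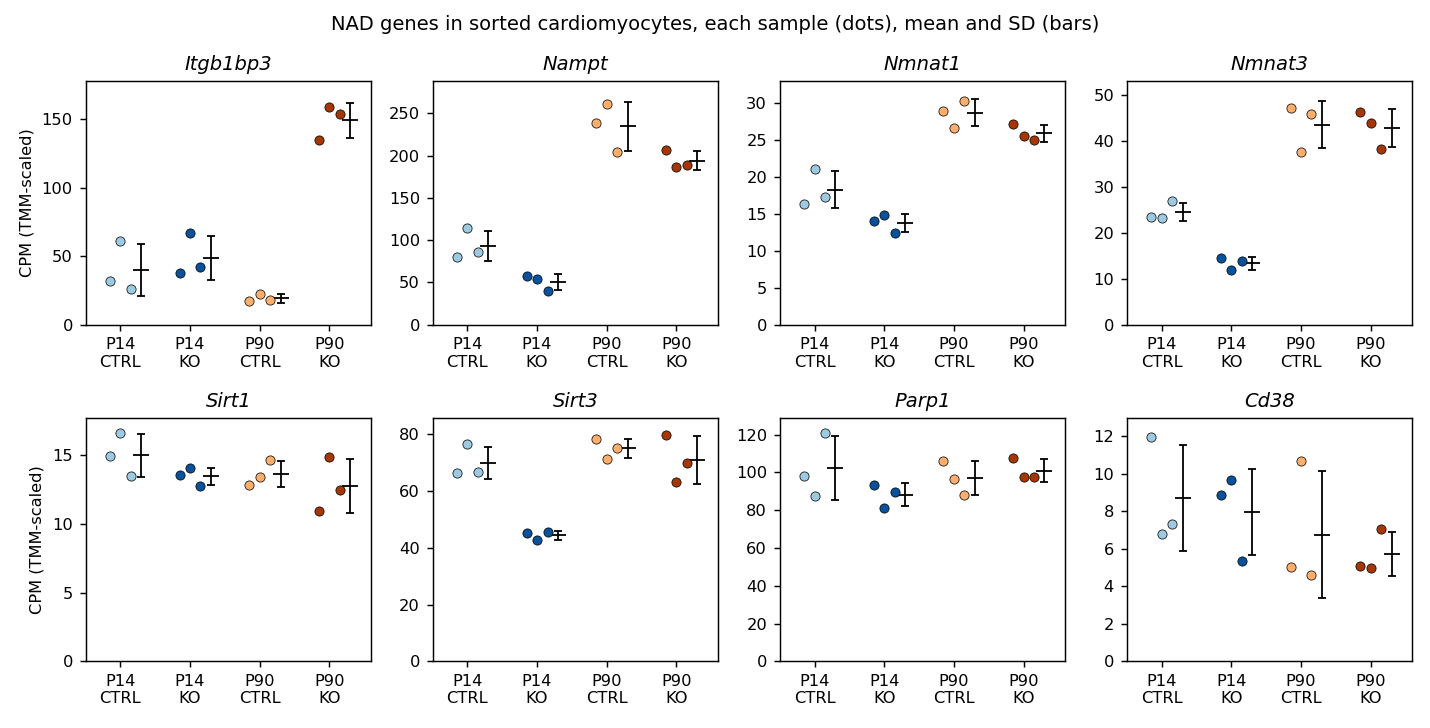
CPM (linear axis, scaled by TMM) of the 8 NAD genes in each of the 12 samples by group; dots are samples in replicate order, and bars show the mean and SD of 3 samples. Itgb1bp3 stands at 134.5 to 159.0 CPM in P90 KO and at no more than 67.1 CPM elsewhere, whereas Nampt, Nmnat3 and Sirt3 are lower in P14 KO than in P14 CTRL with no overlap.

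Nampt (chr12:32820335-32853369, plus strand), the rate-limiting enzyme of salvage from nicotinamide, had a different pattern. It was 80.3, 113.9 and 85.8 CPM in P14 CTRL and 57.9, 54.2 and 40.4 CPM in P14 KO. Every neonatal KO sample lay below every CTRL sample, and the KO mean was 54.5% of the CTRL mean. Nampt was down-regulated in neonatal KO, with a log2 fold change of -0.88 ± 0.18 (SE) and an adjusted p of 0.0247. In adult CMs it was 238.9, 261.2 and 204.0 CPM in CTRL and 206.7, 186.5 and 188.6 CPM in KO. The adult ranges touched at their edges, and the log2 fold change of -0.27 ± 0.11 (SE) did not pass, with an adjusted p of 0.253. The stage difference in the KO effect was -0.60 and did not pass either, with an adjusted p of 0.157. In CTRL CMs Nampt rose 2.52-fold from P14 to P90, with a log2 fold change of 1.33 ± 0.16 (SE) and an adjusted p of 0.000543.

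Nmnat1 and Nmnat3 carry out the same last step in different compartments. Nuclear Nmnat1 (chr4:149468787-149485142, minus strand) was 16.4, 21.2 and 17.4 CPM in P14 CTRL and 14.0, 14.8 and 12.4 CPM in P14 KO. The KO samples were all lower, but the log2 fold change of -0.41 ± 0.15 (SE) did not pass, with an adjusted p of 0.129, and passed only when all 12 samples were fitted together, at 0.0407. In adult CMs Nmnat1 was 29.0, 26.7 and 30.4 CPM in CTRL and 27.2, 25.6 and 25.0 CPM in KO, with overlapping ranges, a log2 fold change of -0.14 and an adjusted p of 0.548. It rose in CTRL from P14 to P90, with a log2 fold change of 0.65 and an adjusted p of 0.00886.

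Mitochondrial Nmnat3 (chr9:98296583-98411428, plus strand) was 23.4, 23.2 and 26.9 CPM in P14 CTRL and 14.5, 11.8 and 13.8 CPM in P14 KO. The groups were well separated and KO held 54.6% of the CTRL mean, with a log2 fold change of -0.88 ± 0.14 (SE) and an adjusted p of 0.0132. In adult CMs it was 47.0, 37.6 and 45.8 CPM in CTRL and 46.1, 43.8 and 38.2 CPM in KO. The adult samples were interleaved, with a log2 fold change of -0.02 ± 0.12 (SE) and an adjusted p of 0.946. Nmnat3 was the only one of the 7 members tested here whose KO effect differed between stages, by a log2 value of -0.85 ± 0.18 (SE), adjusted p of 0.0365. That call was lost with sex as a covariate (adjusted p of 0.0608) and without any of 8 of the 12 libraries (P14 KO 1 to 3, P90 CTRL 1 to 3, and P90 KO 1 and 2), where the adjusted p was 0.0572 to 0.117. In CTRL Nmnat3 rose 1.77-fold from P14 to P90, with an adjusted p of 0.00265.

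Among the NAD consumers, Sirt3 and Sirt1 are deacetylases that split NAD with each reaction. Sirt3 (chr7:140863663-140882309, minus strand), the main deacetylase of mitochondria, was 66.4, 76.4 and 66.6 CPM in P14 CTRL and 45.1, 42.6 and 45.5 CPM in P14 KO. All KO samples lay below all CTRL samples, and Sirt3 was down-regulated to 63.7% of the CTRL mean, with a log2 fold change of -0.66 ± 0.11 (SE) and an adjusted p of 0.0145. In adult CMs it was 78.2, 71.3 and 75.2 CPM in CTRL and 79.8, 63.0 and 69.7 CPM in KO, and the ranges overlapped (log2 fold change of -0.08, adjusted p of 0.764). The stage difference in the KO effect was -0.57, with an adjusted p of 0.0618 by edgeR and 0.00762 by DESeq2. Sirt3 shares 69 of its exon bases (4.38%) with Ric8 on the opposite strand, and the strand setting of the counting is not stated.

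Sirt1 (chr10:63319005-63339035, minus strand), a mostly nuclear deacetylase, was nearly level. It was 14.9, 16.6 and 13.5 CPM in P14 CTRL, 13.5, 14.0 and 12.7 CPM in P14 KO, 12.8, 13.4 and 14.6 CPM in P90 CTRL and 10.9, 14.9 and 12.5 CPM in P90 KO. Each group overlapped the next in the order of means, and the log2 fold changes were -0.16 ± 0.14 (SE) in neonatal KO and -0.08 ± 0.15 (SE) in adult KO, with adjusted p of 0.521 and 0.820.

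Parp1 (chr1:180568975-180601254, plus strand), the polymerase that uses NAD when DNA is broken, was 98.4, 87.4 and 120.9 CPM in P14 CTRL and 93.5, 81.4 and 89.8 CPM in P14 KO. It was 106.3, 96.7 and 88.2 CPM in P90 CTRL and 107.8, 97.5 and 97.5 CPM in P90 KO. The 4 groups overlapped, and the log2 fold changes of -0.22 ± 0.14 (SE) in neonatal and 0.06 ± 0.10 (SE) in adult KO did not pass, with adjusted p of 0.376 and 0.805.

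Cd38 (chr5:43868827-43912374, plus strand), a glycohydrolase of the cell surface that is abundant on leukocytes, was the least abundant member. It was 11.9, 6.80 and 7.31 CPM in P14 CTRL and 8.88, 9.67 and 5.36 CPM in P14 KO. It was 5.00, 10.7 and 4.59 CPM in P90 CTRL and 5.09, 4.98 and 7.06 CPM in P90 KO. All groups overlapped, from 58 to 254 reads per library, and the log2 fold changes were -0.13 ± 0.29 (SE) in neonatal and -0.20 ± 0.30 (SE) in adult KO, with adjusted p of 0.840 and 0.782. The 5 macrophage and leukocyte markers together summed to 4.45 to 12.5 CPM in the same libraries, a range like that of Cd38. The summed endothelial markers, at 150.3 to 345.1 CPM, were highest in the same library as Cd38 in each group. The leukocyte, lymphocyte and fibroblast sums were so in each group but P90 KO. Whether any of these cell types carried part of the Cd38 reads was not tested.

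In all, 3 of the 8 members were called in neonatal KO, all lower, where 8.59% of the 12546 genes tested were called and 4.6% were called lower. The median log2 fold change of the 8 was -0.315, against 0.00108 for all genes, and 4 of the 8 (Nampt, Nmnat1, Nmnat3 and Sirt3) had no overlap between the groups, as had 32.7% of all genes, 16.7% in the lower direction. In adult KO Itgb1bp3 was the member past the threshold, where 0.39% of 11808 genes were called and 0.237% were called higher, and it was chosen for that value. Of the other 7, 0 were called by edgeR or by DESeq2, and 1 (Nampt) had an unadjusted edgeR p under 0.05, as had 1910 of the 11808 genes. None of these 7 was free of overlap between adult KO and CTRL, against 21.6% of all genes. In CTRL CMs from P14 to P90, 3 of these 7 were called, all higher, against 29.3% of 12294 genes called and 14.5% called higher. These 3 (Nampt, Nmnat1 and Nmnat3) had no overlap between the stages, as had 44.9% of all genes. For the stage difference in the KO effect, 1 of 7 was called, against 1.78% of 12841 genes. All 8 members were chosen with earlier results of these data known, so these counts and the shares beside them are a description.

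Most of the neonatal calls were lost when a KO library was left out. Without P14 KO replicate 1 the adjusted p was 0.0617 for Nampt and 0.0542 for Sirt3, while Nmnat3 still passed at 0.0476, without replicate 2 it was 0.0850 for Nampt, 0.0738 for Sirt3 and 0.0664 for Nmnat3, and without replicate 3 it was 0.0912, 0.0607 and 0.0603 for these genes. The log2 fold changes moved little, staying at -0.98 to -0.71 for Nampt, -0.93 to -0.78 for Nmnat3 and -0.70 to -0.58 for Sirt3. The share of all genes called also fell without these libraries, to 1.58%, 0.873% and 1.42%. The summed ventricular CM markers, some of which the paper reports as changed by Srf loss, were lower in neonatal KO too, with no overlap with CTRL. Their part in the members' fall was not tested. The CTRL rises of Nampt, Nmnat1 and Nmnat3 passed in every one of 12 fits, each library left out included.

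**Figure D2:**
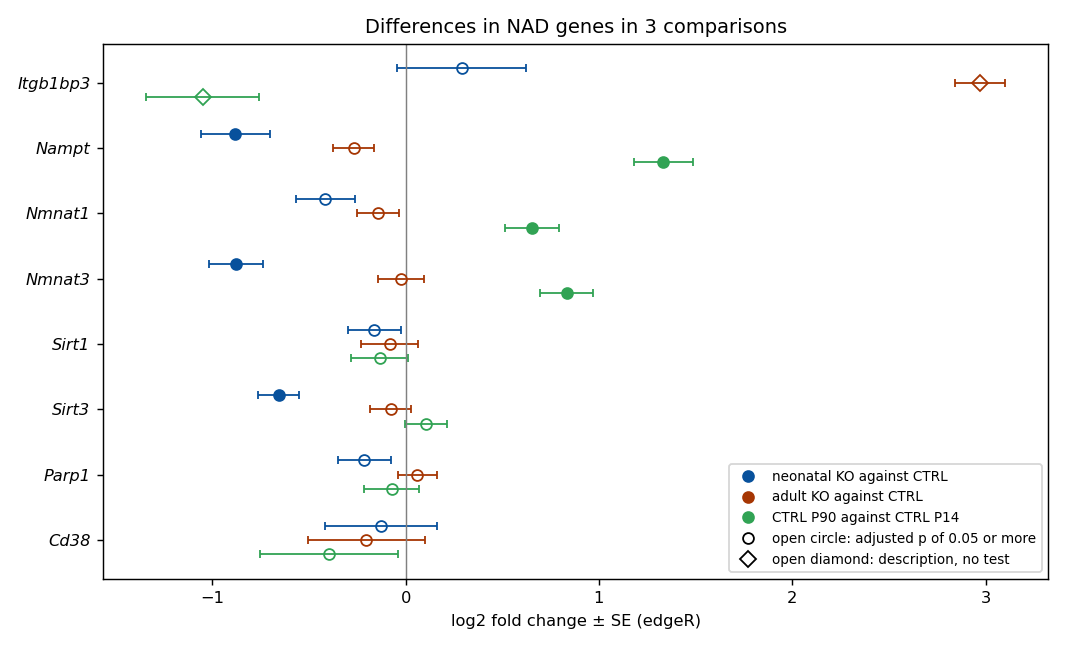
The log2 fold change with its SE (edgeR) for each of the 8 genes in neonatal KO against CTRL, adult KO against CTRL, and CTRL P90 against CTRL P14; filled circles have an adjusted p under 0.05, and open diamonds are the values of Itgb1bp3 given as a description. Nampt and Nmnat3 lie at -0.88 in neonatal KO and at 1.33 and 0.83 in the CTRL stage comparison, and Itgb1bp3 lies at 2.97 in adult KO.

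Levels of different genes were compared only per kilobase of listed exon length. In P14 CTRL, Sirt3 was the highest member at 44.3 ± 3.62 CPM per kb (mean ± SD, n = 3), followed by Parp1 at 26.7, Itgb1bp3 at 21.6, Nampt at 20.5 and Nmnat1 at 19.2 CPM per kb, and each of these last 4 overlapped its neighbour. Nmnat3 at 11.3, Sirt1 at 3.83 and Cd38 at 2.90 CPM per kb were the lowest, and the ranges of the last pair overlapped. In P90 CTRL the order differed. Nampt led at 51.6 ± 6.33 CPM per kb, overlapping Sirt3 at 47.6, whereas Itgb1bp3 at 10.4 ± 1.66 CPM per kb was the sixth, below Nmnat3 at 20.1 and with no overlap.

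In P90 KO, Itgb1bp3 was the highest member per kilobase, at 81.1 ± 7.04 CPM per kb (mean ± SD, n = 3), and its range lay above that of the next, Sirt3 at 44.97 CPM per kb. In P14 KO, Sirt3 at 28.2, Itgb1bp3 at 26.5 and Parp1 at 23.1 CPM per kb overlapped one another in that order, and Nampt at 11.2 CPM per kb ranked below Nmnat1 at 14.4 CPM per kb, with no overlap.

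Ratios within a sample do not depend on how libraries are scaled. The log2 ratio of Itgb1bp3 to Nampt per kilobase, which sets the riboside kinase against the nicotinamide route to NMN, was -0.01 ± 0.42 (mean ± SD, n = 3) in P14 CTRL and 1.22 ± 0.48 in P14 KO. The neonatal groups did not overlap and differed by 1.23, with p = 0.1 by an exact two-sided permutation test, the smallest that 3 against 3 samples can give, and 0.25 after adjustment over the 5 ratios tested. In adult CMs the ratio was -2.31 ± 0.17 in CTRL and 0.92 ± 0.21 in KO, a difference of 3.23 that is a description. Itgb1bp3 was therefore above Nampt per kilobase in all 6 KO samples and below it in all 3 adult CTRL samples.

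The log2 ratio of Nmnat1 to Nmnat3 was 0.75 ± 0.26 in P14 CTRL and 1.22 ± 0.25 in P14 KO, with overlapping ranges (exact permutation p = 0.2). That of Sirt1 to Sirt3 was -3.54 ± 0.08 in P14 CTRL and -3.04 ± 0.12 in P14 KO with no overlap, a difference of 0.50 (exact permutation p = 0.1, adjusted 0.25). In adult CMs the KO minus CTRL differences were -0.12 for Nmnat1 to Nmnat3 (exact permutation p = 0.2) and -0.02 for Sirt1 to Sirt3 (exact permutation p = 1).

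**Figure D3:**
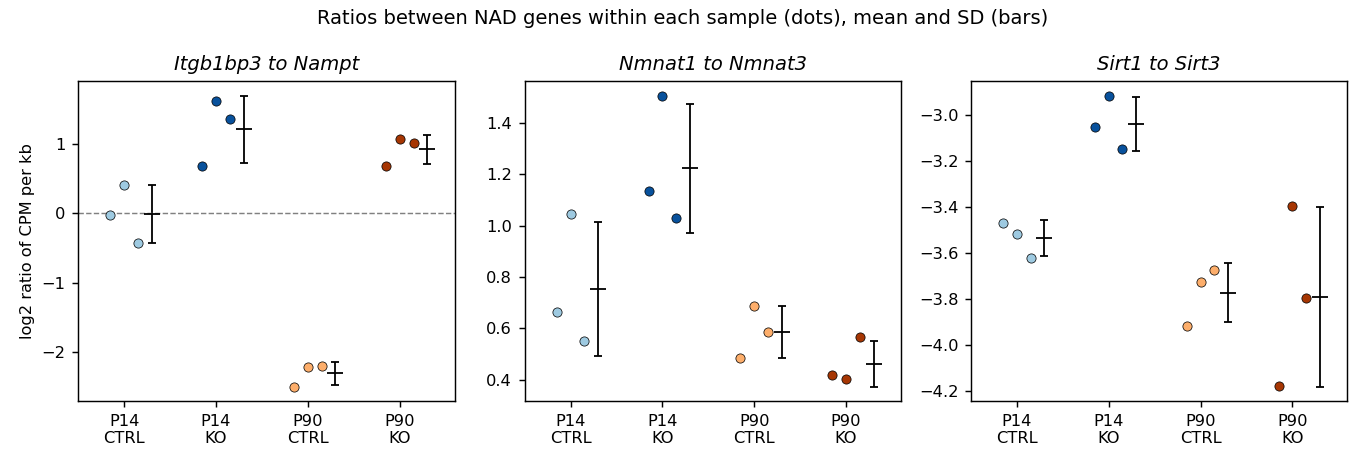
The log2 ratio of CPM per kb between 3 pairs of NAD genes in each sample, by group; dots are samples, bars show the mean and SD of 3 samples, and the dashed line marks equal levels of Itgb1bp3 and Nampt. The Itgb1bp3 to Nampt ratio is near -2.31 in P90 CTRL and 0.92 in P90 KO, and the neonatal groups average -0.01 and 1.22.

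The wider pathway was read from a list of 45 other genes, chosen with earlier results known. In neonatal KO 33 of them were tested and 4 were called, where 8.59% of all genes were called, with a median log2 fold change of -0.0125. Of the 4 tested genes in the list of other synthesis genes, Naprt1 was down-regulated. It starts NAD synthesis from nicotinic acid and was 16.2, 18.7 and 21.6 CPM in P14 CTRL and 8.57, 11.8 and 7.43 CPM in P14 KO, or 49.2% of the CTRL mean, with a log2 fold change of -1.03 and an adjusted p of 0.0225. The groups did not overlap. Afmid, Nmrk1 (the other riboside kinase) and Nadsyn1 did not pass, and Nmrk1, at a mean of 5.59 CPM over all samples, stayed between 3.46 and 9.11 CPM. The other 9 genes of the list did not reach the filter. Among these, the tryptophan-route genes Qprt, Haao, Kynu, Kmo, Tdo2, Ido1, Ido2 and Acmsd had at most 10 reads in any library, and Qprt was at 0 reads in all 12, which allows up to 0.308 CPM in the smallest library.

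In the list of NADP, transport and nicotinamide handling genes, 2 of 10 tested were called in neonatal KO. Nadk2, the mitochondrial NAD kinase, was 76.8, 99.8 and 71.1 CPM in P14 CTRL and 57.3, 51.8 and 52.9 CPM in P14 KO and was down-regulated, with a log2 fold change of -0.62 and an adjusted p of 0.0352. Nt5e, the cell-surface 5′-nucleotidase CD73, which can release nicotinamide riboside from NMN outside cells, was 52.2, 56.9 and 43.9 CPM in P14 CTRL and 150.2, 131.1 and 136.3 CPM in P14 KO. The lowest KO sample was 2.30 times the highest CTRL sample, and Nt5e was up-regulated with a log2 fold change of 1.44 ± 0.13 (SE) and an adjusted p of 0.00216, which passed in all 13 fits. Nnt, the transhydrogenase of the mitochondrial inner membrane and the most abundant gene of the list per kilobase, did not pass, at a log2 fold change of -0.48 and an adjusted p of 0.0632 by edgeR, although its groups did not overlap and DESeq2 gave an adjusted p of 0.0123.

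Of the 5 other sirtuins, Sirt5, which removes succinyl and related groups in mitochondria, was down-regulated in neonatal KO. It was 39.1, 45.2 and 40.9 CPM in P14 CTRL and 28.2, 25.9 and 27.3 CPM in P14 KO, with a log2 fold change of -0.62 and an adjusted p of 0.0177. Sirt2 and Sirt4 did not pass, at log2 fold changes of 0.02 and -0.33. Sirt7 pointed the other way, at 13.6 ± 1.70 CPM in P14 CTRL and 19.4 ± 2.26 CPM in P14 KO (mean ± SD, n = 3) with no overlap. Its log2 fold change of 0.51 had an adjusted p of 0.0768 by edgeR and 0.0453 by DESeq2. The list of 14 other polymerases, which includes Parp2, Parp3 and Tnks2, had 0 calls by edgeR and 1 by DESeq2, with 2 at an unadjusted p under 0.05 and a median log2 fold change of 0.0315. Over all genes, edgeR called 8.59% and DESeq2 14.7%, and 3206 of 12546 had an unadjusted edgeR p under 0.05. The glycohydrolases Bst1 and Sarm1 did not reach the filter, with at most 9 reads in any library. The 3 lower calls of the wider list also depended on single libraries. Sirt5 was lost without P14 KO 1, 2 or 3 (adjusted p of 0.0621 to 0.0861), Naprt1 without P14 KO 1 or 3 (0.0923 and 0.0949), and Nadk2 without P14 KO 1, 2 or 3 or P14 CTRL 1 (0.0565 to 0.131).

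In adult KO, 0 of 32 tested genes of the wider list were called by edgeR, 7 had an unadjusted p under 0.05, and DESeq2 called 1, Mcart1, the mitochondrial NAD carrier also named Slc25a51. Over all genes, edgeR called 0.39% and DESeq2 2.89%, and 1910 of 11808 had an unadjusted edgeR p under 0.05. Nt5e was 47.3, 49.8 and 35.8 CPM in P90 CTRL and 57.5, 47.0 and 72.6 CPM in P90 KO. These groups overlapped, and a log2 fold change of 0.42 ± 0.17 (SE) did not pass (adjusted p of 0.252). Nt5e and Sirt5 were the 2 genes of 33 whose KO effect differed between stages, by 1.04 (adjusted p of 0.0440) and -0.76 (adjusted p of 0.0432), where 1.78% of all genes were called. Both calls were lost with sex as a covariate. Both were also lost without P14 KO 1, 2 or 3, P90 CTRL 2 or 3, or P90 KO 1 or 2, as was Sirt5 without P14 CTRL 2 and Nt5e without P90 CTRL 1, and the adjusted p reached 0.118 for each gene.

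**Figure D4:**
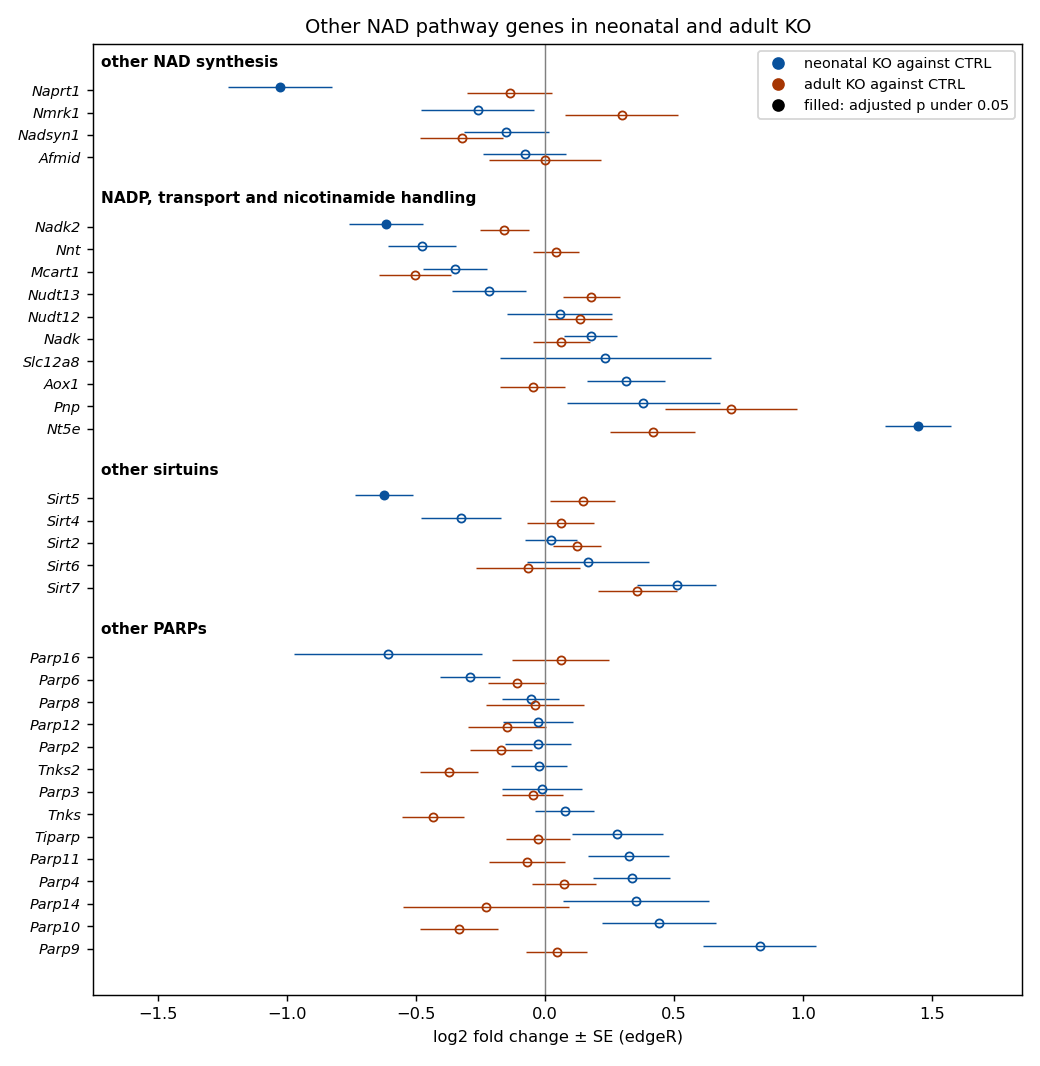
The log2 fold change with its SE (edgeR) of the other NAD pathway genes that passed the filter, grouped by list, in neonatal KO (blue) and adult KO (brown) against CTRL; filled circles have an adjusted p under 0.05. The 4 filled circles are neonatal: Naprt1 at -1.03, Nadk2 at -0.62, Sirt5 at -0.62 and Nt5e at 1.44.

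Genes whose products work in mitochondria were then put side by side, a grouping made after the values had been seen and therefore not tested. The 7 genes were Nmnat3, Sirt3, Sirt4, Sirt5, Nadk2, Nnt and Mcart1. All 7 had a negative log2 fold change in neonatal KO, from -0.877 to -0.325, and 4 of them were called (Nmnat3, Sirt3, Sirt5 and Nadk2). Over all genes the median was 0.00108 and 4.6% were called lower, and nothing is read from the difference, since the group was formed on these values. In adult KO 4 of the 7 were negative, from -0.505 to 0.146, and 0 were called.

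Between stages in CTRL CMs, 14 of 32 tested genes of the wider list differed, 11 higher and 3 lower at P90, against 29.3% of all genes. The 11 were Naprt1, Nadk2, Nnt, Aox1, Nudt12, Nudt13, Parp3, Parp10, Parp12, Parp14 and Tnks2. Aox1, which oxidises methylated nicotinamide, had the largest of these rises at 3.19-fold, followed by Parp3 at 2.22-fold, and Nnt rose from 624.2 ± 75.6 to 1085 ± 73.3 CPM (mean ± SD, n = 3). Sirt7, Parp8 and Tiparp were lower, with log2 fold changes of -0.61, -0.79 and -0.69. The count fell to 9 without P90 CTRL 1, 2 or 3, and the calls of Sirt7, Nudt13, Parp10, Parp14, Tnks2 and Tiparp were each lost without at least 1 library, with an adjusted p of up to 0.142. Naprt1, Nadk2, Nampt and Nmnat3 were thus each higher in adult than in neonatal CTRL CMs and lower in neonatal KO than in neonatal CTRL CMs, and the 2 comparisons share the 3 P14 CTRL samples. Sirt3 and Sirt5 were lower in neonatal KO as well but were not called in the CTRL stage comparison, at log2 fold changes of 0.11 (adjusted p of 0.491) and 0.14 (adjusted p of 0.419). In the stage comparison 4 of 5 endothelial, 3 of 5 fibroblast and 3 of 4 atrial markers tested were called, where 29.3% of all genes were. So were 1 of 5 smooth muscle and pericyte, 1 of 1 skeletal muscle fibre and 1 of 1 erythroid markers tested. Among ventricular markers 0 of 5 were called, and among macrophage and leukocyte markers 0 of 4. The part of these markers in the stage differences was not tested.

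The genes whose log2 CPM followed Itgb1bp3 most closely over the 12 samples, among 12840 others, were Srp14 (Pearson r = 0.90), Tmem42 (0.89), Tob2 (0.88), Mthfs (0.87) and Dph3 (0.86). The 12 points share libraries and group structure, so these are descriptions. None had a rise of comparable size: Tob2, the steepest in CPM, was 87.8 CPM in P90 CTRL and 161.4 CPM in P90 KO. By Spearman correlation, and after centring on stage, 2 of these 5 stayed among the first 5. The other 7 members had r of -0.19 to 0.04 with Itgb1bp3, and Srf had r = -0.51.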

How the data were processed

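Per the labels, sorted CMs gave total RNA that was amplified with SMART-Seq v4, made into Nextera XT libraries and read from a single end. Per the submitters' processing notes and the study's methods, the authors used CASAVA 1.8, STAR 2.5.3a and featureCounts (Subread 1.5.2) on mm10, and they deposited raw counts per gene, not normalized, with exon positions and lengths, in a table per stage. The strand setting and the handling of reads with several matches are not given in the sources used here, so counts of overlapping genes and near-identical copies such as the globins are uncertain.

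Groups and replicate numbers came from the sample titles. The main test was that of edgeR 4.0.16 in R 4.3.3 (filterByExpr, TMM factors, quasi-likelihood F-test, Benjamini-Hochberg over all genes, adjusted p under 0.05). Each KO comparison used its stage's 6 samples, the CTRL stage comparison the 6 CTRL samples and the interaction all 12. The tests were checked on simulated data. The authors used DESeq2, which was run beside it (1.42.0), with size factors in place of TMM, no filter, a replicate block, sex as a covariate (male at 100 or more reads over 4 Y-linked genes), all 12 samples in 1 fit, and each sample left out. Each SE is the log2 fold change divided by the square root of F. Ratios were of CPM per kb of listed exon length, with a pseudocount of 1 as an alternative. Log2 CPM for correlations had a prior count of 2. P-values measure the spread between hearts, and floors of 3 counts cover counting error only, since reads carry no molecular identifiers.

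The members, lists and tests were chosen with earlier results of these data known. Genes named are the 8 members, Srf, genes of the pathway lists that passed in any comparison or were among the 3 highest per kb of their list, the 5 most correlated with Itgb1bp3, and marker genes; Nadsyn1, Slc25a51 and genes under the filter were named after their values were seen. The older symbols Naprt1 and Mcart1 were matched by RefSeq synonym, and Nmrk1 and Nadk2 by position. All 8 members matched a RefSeq promoter window, and the first listed was used where a gene has several.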

Additional observations from a re-analysis of the deposited data

Results flagged for a closer look

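A set of 3 results was marked because the KO effect differed between the neonatal and adult stage in a test of the difference itself, edgeR's quasi-likelihood interaction term over 12841 genes. The neonatal minus adult log2 difference was -0.85 for Nmnat3 (adjusted p of 0.0365), -0.76 for Sirt5 (adjusted p of 0.0432) and 1.04 for Nt5e (adjusted p of 0.0440). In each case all 3 neonatal KO samples lay on the same side of all 3 neonatal CTRL samples, while the adult samples overlapped. Itgb1bp3, whose difference was -2.67, was left out here because it was chosen for its adult value. Groups of 3 samples were not tested for a single outlying sample.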

How the results depend on the processing

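Over 416 member values under alternative settings, 394 were counted as unchanged, 17 fell short of the threshold, 3 came past it and 2, both of Itgb1bp3 without P14 CTRL replicate 2, moved by more than the spread. The Itgb1bp3 values given as a description were judged by the size of their shift, not by the threshold. The sign changed in 19 of the 394, none of them a called value. Of the 8 members, 0 to 3 were called in neonatal KO with a library left out, and of the 45 other pathway genes 1 to 5, against 7 with DESeq2 and 7 with all 12 samples in 1 fit. In adult KO, DESeq2 called 1 of the 45, no filter on low counts 4 and the replicate block 3. In the interaction, DESeq2 and the replicate block each called 2 of 7 members, the added member being Sirt3 (adjusted p of 0.0404 with the block), and sex as a covariate 0. Of the 45, DESeq2 called 4 and sex as a covariate 0. With a library left out, 0 to 1 of 7 members and 0 to 3 of the 45 were called there, and 9 to 14 of the 45 in CTRL P90 against CTRL P14. The causes of these shifts were not tested. The ratios kept their direction other than Sirt1 to Sirt3 in adult KO, whose difference of -0.02 was 0.006 with a pseudocount of 1 and -0.21 to 0.18 with a library left out.

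Replicate numbers are shared between groups, and what they stand for is not stated. In their deviations from group means, same-numbered samples correlated at 0.047, 0.148 and 0.36 at P14 and 0.181, -0.000342 and 0.054 at P90. Samples with unlike numbers correlated at -0.241 to 0.151 at P14 and -0.253 to 0.173 at P90. The main test did not treat samples as paired, and a shared replicate structure was not excluded. The replicate block gave 3 called members in neonatal KO and 0 of 7 in adult KO, as without it. Over all genes it raised the share called from 8.59% to 12.2% in neonatal KO and from 0.39% to 5.55% in adult KO. With 3 hearts per group, changes smaller than those called can go undetected. Members had at least 58 reads in every library, the fewest for Cd38.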
